A study of Mus musculus with 15 samples.

Results

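The 35 genes described here are mouse genes of sterol synthesis, fatty acid synthesis, sterol sensing and sterol export, chosen by name from a table of 32434 entries. They fall into 5 roles: 7 enzymes of the mevalonate path, 11 enzymes of the sterol branch, 6 genes of sterol sensing and transport, 6 genes of fatty acid synthesis, and 5 genes of the liver X receptor (LXR) and sterol efflux. Expression was measured by RNA sequencing of total RNA in 5 mouse myeloma cell lines, numbered IL6Myc-1 to IL6Myc-5, all of the genotype IL6Myc and derived from IL6Myc mice, which model aggressive multiple myeloma, a plasma cell cancer, in animals with an intact immune system. The labels name no agent and no line of another genotype, so the comparisons are between the lines. Each line was represented by 3 libraries, 15 in all, which the labels call technical replicates. The p-values therefore measure the spread between technical replicates of each line and not between mice, tumours or clones.

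Cells build cholesterol from acetyl-CoA through mevalonate, farnesyl diphosphate, squalene and lanosterol, while the same acetyl-CoA, released from citrate, is the starting point of fatty acids. When sterol in the endoplasmic reticulum is low, the escort protein SCAP carries the SREBP factors to the Golgi, where they are cleaved and released to switch on both paths. INSIG proteins hold SCAP back when sterol is plentiful, and the LXR receptors, which bind oxidised sterols, then switch on export pumps. Plasma cells and the myeloma cells derived from them keep a large secretory endoplasmic reticulum, whose membrane is made from these lipids.

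Total deposited estimated counts were 19068543 to 41165599 per library, and the members together took 0.286% to 0.432% of them. The unit of level is CPM, a count divided by its library's size after TMM scaling, and differences as log2 values with their SE from edgeR's quasi-likelihood fit to all 15 libraries. A call needed a difference of at least 1 log2 unit and an adjusted p (Benjamini-Hochberg over 11773 tested genes) under 0.05. All 35 members passed the filter of 1 CPM in at least 3 libraries. All 8 plasma cell markers were tested and none was at 0, with summed levels of 47756 to 111444 CPM by line mean. No stromal marker of 6 passed the filter, and their summed level did not exceed 1.52 CPM in any library. Of 9 macrophage markers 3 passed, with summed line means of 136 CPM in IL6Myc-3 to 677 in IL6Myc-4. Of 6 adipocyte markers 2 passed, with summed line means of 71.7 CPM in IL6Myc-2 and at most 12 CPM elsewhere. Of 6 T and NK cell markers 2 passed, with summed line means of 1.58 CPM in IL6Myc-5 to 25.4 in IL6Myc-4. The part of these other markers in the differences between lines was not tested.

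Promoter sequences were searched for fixed letter patterns of elements through which such genes are commonly controlled. Windows around gene starts from RefSeq (GRCm38.p6) were matched for 28 of the 35 members. The set below was chosen because HMGCS1, a textbook target of SREBP, was the single member with a match to the searched sterol regulatory element, HSD17B7 had the largest difference between lines among the sterol branch genes that were lowest in IL6Myc-5, and ABCA1 was the member called higher in IL6Myc-5. Capitals mark matches, on either strand, to the sterol regulatory element TCACNCCAC, to the NF-Y box CCAAT, whose reverse complement is shown where it lies on the other strand, or to the E-box CACGTG. The windows lie at chr13:119690101-119690400 on the plus strand for HMGCS1, at chr1:169969156-169969455 on the minus strand for HSD17B7 and at chr4:53159846-53160145 on the minus strand for ABCA1.
HMGCS1: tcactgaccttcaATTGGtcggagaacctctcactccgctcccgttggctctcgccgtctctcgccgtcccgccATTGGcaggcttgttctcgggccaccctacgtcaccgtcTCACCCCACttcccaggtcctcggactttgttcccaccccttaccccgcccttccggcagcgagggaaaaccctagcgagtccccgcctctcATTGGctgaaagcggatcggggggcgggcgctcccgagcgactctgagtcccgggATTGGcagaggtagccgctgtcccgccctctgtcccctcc
HSD17B7: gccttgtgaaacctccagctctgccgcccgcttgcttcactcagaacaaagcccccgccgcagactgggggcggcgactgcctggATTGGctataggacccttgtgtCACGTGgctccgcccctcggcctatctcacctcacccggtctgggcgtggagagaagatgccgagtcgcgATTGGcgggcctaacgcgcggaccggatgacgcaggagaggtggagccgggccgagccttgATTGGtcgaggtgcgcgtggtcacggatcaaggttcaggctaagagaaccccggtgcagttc
ABCA1: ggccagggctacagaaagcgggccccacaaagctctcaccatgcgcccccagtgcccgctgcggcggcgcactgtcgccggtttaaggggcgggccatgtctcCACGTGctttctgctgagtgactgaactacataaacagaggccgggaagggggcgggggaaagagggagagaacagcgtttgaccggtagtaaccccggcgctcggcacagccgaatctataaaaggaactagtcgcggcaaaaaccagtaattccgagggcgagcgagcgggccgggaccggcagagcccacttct

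The HMGCS1 window held the sterol regulatory element match at -137 from the gene start and 4 NF-Y boxes. The HSD17B7 window held 3 NF-Y boxes and 1 E-box, and the ABCA1 window held an E-box at -147. Over the members, the NF-Y box was found in 21 of 28 genes (75%), against 41.1% of 27025 genes with a window and 44.1% of the tested genes with one. The E-box was found in 6 of 28 member genes (21.4%), namely ABCA1, DHCR7, HSD17B7, INSIG1, SC5D and SCAP, against 8.09% of all genes and 12.1% of tested genes. The sterol regulatory element pattern was found in 1 of 28 member genes (3.57%) and in 1.44% of all genes. A direct repeat pattern of LXR sites was found in 0 of 28 member genes, in 4 of 27025 genes (0.0148%) and in 0 of 9334 tested genes. So rare a pattern cannot tell the members from other genes, and ABCG1 had no window. No printed matches overlap one another, and a match is a run of letters in the window and not a measured site.

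All members were expressed in all lines, and per kilobase of exon SCD2 was far above the rest. SCD2, a stearoyl-CoA desaturase that puts a double bond into saturated fatty acids, averaged 314 CPM per kilobase over the lines, followed by INSIG1 with 65.8 and FDPS with 60.4 CPM per kilobase. ACLY followed with 38.4 and SREBF2 with 36.1 CPM per kilobase. At the other end stood MYLIP with 1.90 and NR1H3 with 0.367 CPM per kilobase. SCD2 took 53.5% ± 0.288 of all member counts in IL6Myc-1 and 39.9% ± 1.59 in IL6Myc-5 (SD, n = 3 each), with 43.9% to 47.8% in the other lines. Sums over members therefore depend mostly on SCD2, and role sums are given with and without it where it matters.

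**Figure D1:**
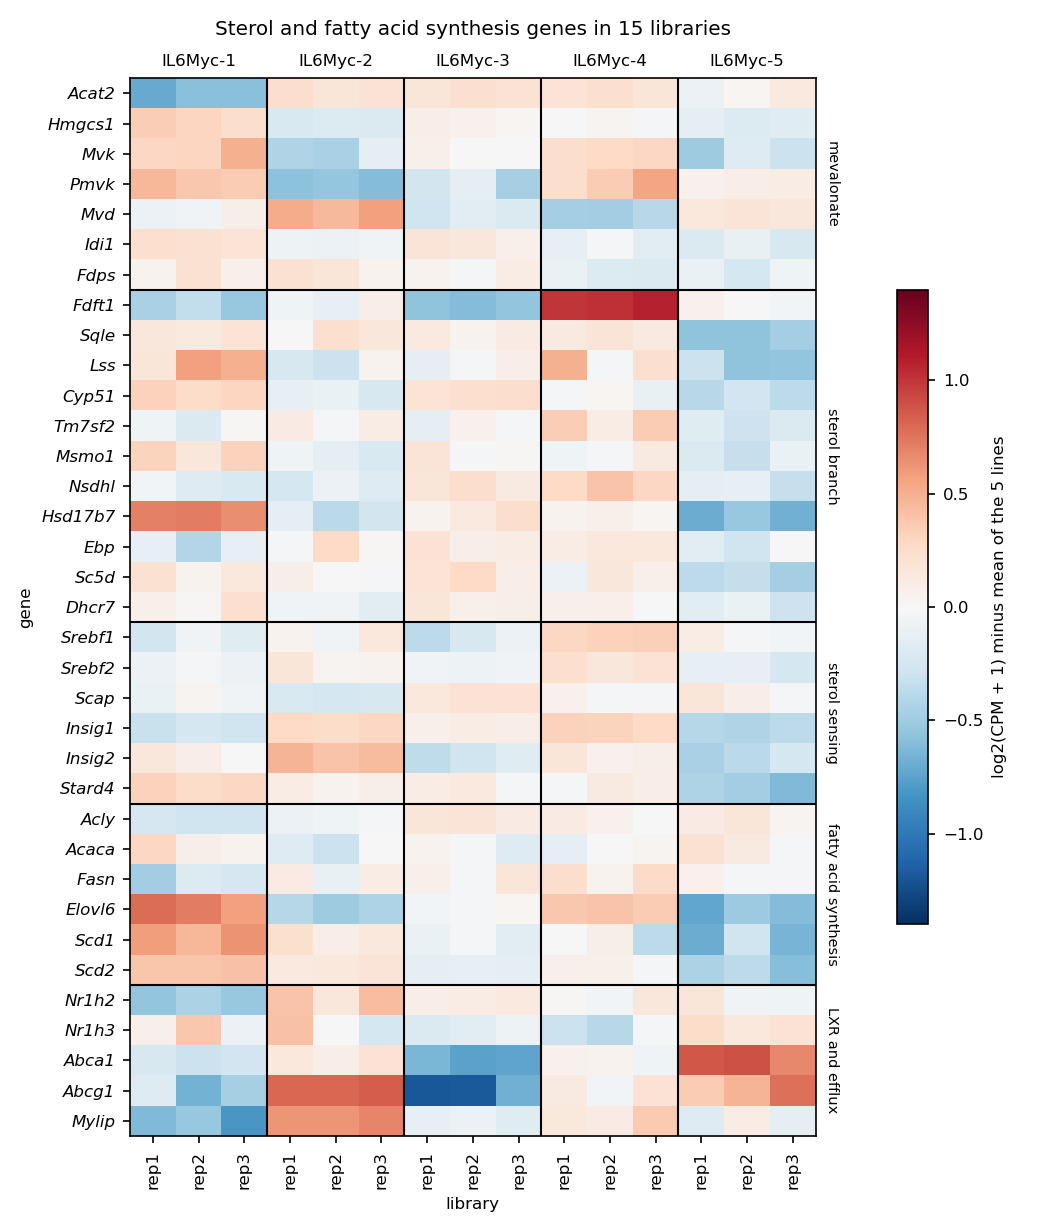
Log2 level of each of the 35 members (rows, grouped by role) in each of the 15 libraries (columns, grouped by line), relative to the member's mean over all libraries; the colour scale is in log2 units. FDFT1 stands out in the IL6Myc-4 columns, and most rows of the sterol branch are lowest in the IL6Myc-5 columns.

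The lines differed in nearly all members, but mostly by less than 2-fold. The F-test over the lines gave an adjusted p under 0.05 for 34 of 35 members, against 91.7% of all tested genes, and the exception was NR1H3. With the size threshold of 1 log2 unit over the range of the lines, 9 of 35 members (25.7%) were called, against 32.1% of all tested genes, which is a share near the background. The called members were PMVK, MVD, FDFT1, HSD17B7, ELOVL6, SCD1, ABCA1, ABCG1 and MYLIP. The median range over the lines was 0.71 log2 units over the members and 0.70 over all tested genes. By role, 2 of 7 mevalonate genes, 2 of 11 sterol branch genes, 0 of 6 sensing genes, 2 of 6 fatty acid genes and 3 of 5 LXR and efflux genes were called. The median range was 1.51 log2 units in the LXR and efflux group and 0.60 in the sterol branch.

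Over the 10 pairs of lines, 21 of 350 member tests were called (6%), against 13.3% of all gene tests. IL6Myc-1 differed in 4 called members from IL6Myc-2, where 19% of all tested genes were called, and in 4 from IL6Myc-5, where 14.6% were. It differed in 2 members from IL6Myc-4 (15.7% of all tested genes) and in 0 from IL6Myc-3 (11.4%). IL6Myc-2 differed in 3 members from IL6Myc-4 (14%), in 1 from IL6Myc-3 (14%) and in 0 from IL6Myc-5 (12.2%). IL6Myc-3 differed in 2 members from IL6Myc-4 (11.5%) and in 2 from IL6Myc-5 (9.86%), and IL6Myc-4 in 3 from IL6Myc-5 (11.3%). The pairs share lines and are not independent of each other.

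IL6Myc-5 had the lowest summed level of the mevalonate and sterol branch genes, 517 ± 3.43 CPM (SD, n = 3) against line means of 604 to 665 CPM elsewhere. The counts that follow pool all 35 members, and the roles differed. Compared with the mean of the other 4 lines, 20 of 35 members were lower in IL6Myc-5 at an adjusted p under 0.05 of any size (57.1%), against 25.9% of all tested genes. In the other direction 5 members (14.3%) were higher, against 28.9% of all tested genes: MVD, SCAP, ACLY, ABCA1 and ABCG1. The median log2 difference was -0.21 over the members and 0.00 over all tested genes. With library totals in place of TMM sizes, 21 members were lower and 4 higher, and the median over all tested genes was -0.02. No member was called lower in IL6Myc-5 at the size threshold, where 3.19% of all tested genes were, so each of these differences was under 1 log2 unit. In such bulk samples, fewer cells of a type and less RNA per cell cannot be told apart.

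The same was seen library by library. ABCA1 was the 1 member above all others in the 3 IL6Myc-5 libraries, as were 6.41% of all tested genes. For 10 of 35 members (28.6%) all 3 IL6Myc-5 libraries lay below all 12 libraries of the other lines, against 4.99% of all tested genes. These were SQLE, LSS, CYP51, HSD17B7, SC5D, SREBF2, INSIG1, STARD4, ELOVL6 and SCD2. IL6Myc-5 was lower at any size than each other line singly for 9 members (25.7%), against 4.54% of all tested genes, and this count was 8 to 10 when any 1 library was left out. In the other direction, 1 member (ABCA1) was higher than in each other line, against 5.58% of all tested genes. IL6Myc-5 had the lowest mean of the lines for 17 of 35 members (48.6%), against 16% of all tested genes.

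**Figure D2:**
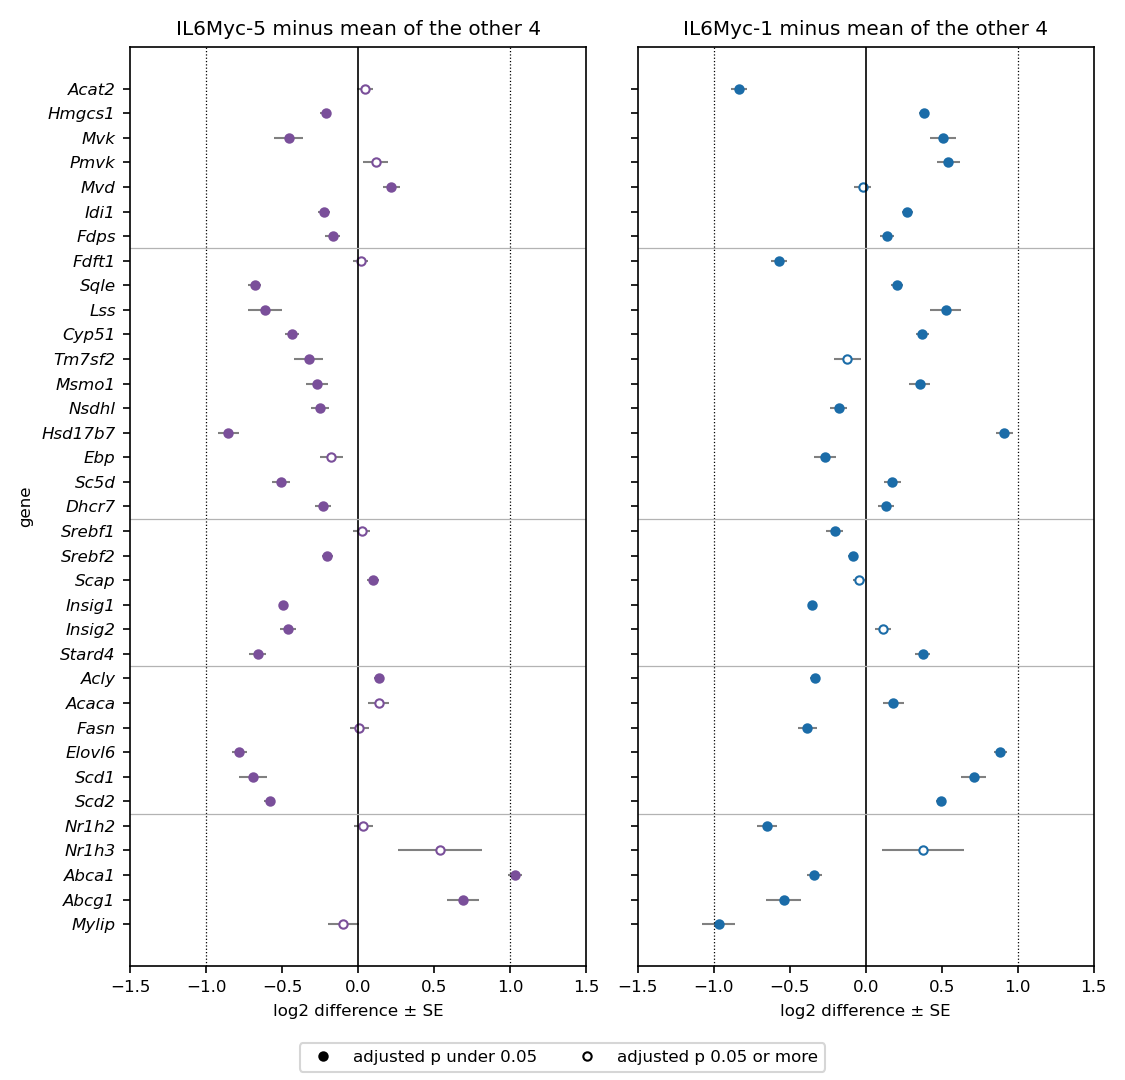
Log2 difference of each member in IL6Myc-5 (left) and IL6Myc-1 (right) from the mean of the other 4 lines, with bars of 1 SE from edgeR's quasi-likelihood fit. Filled points have an adjusted p under 0.05, dotted lines mark 1 log2 unit, and horizontal lines separate the roles; in IL6Myc-5 10 of 11 sterol branch genes lie left of 0.

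In the mevalonate path, the lines differed in both directions and no line was highest throughout. ACAT2, the cytosolic thiolase that joins acetyl-CoA units at the head of the path, had 11.9, 13.0 and 13.0 CPM in the IL6Myc-1 libraries, while its line means were 20.5 ± 1.64 CPM in IL6Myc-5 and 23.1 to 23.3 CPM in the other 3 lines. All IL6Myc-1 libraries lay below every other library for ACAT2, with a log2 difference of -0.83 ± 0.06 (SE) and an edgeR adjusted p of 9.73e-10. ACAT2 shares 43.8% of its 31-base words with ACAT3, which was listed at no more than 0.145 CPM by line mean, so the division of reads between them is uncertain.

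HMGCS1, the enzyme that makes HMG-CoA from it, ran the other way. Its level was 48.0, 46.8 and 44.8 CPM in IL6Myc-1, and the line means were 39.3 ± 1.03 CPM in IL6Myc-3, 37.9 ± 0.746 CPM in IL6Myc-4, 33.4 ± 0.572 CPM in IL6Myc-5 and 32.6 ± 0.257 in IL6Myc-2. The 3 IL6Myc-1 libraries lay above all others, by 0.38 ± 0.04 log2 units over the mean of the other lines (edgeR adjusted p = 5.93e-08).

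The kinases and the decarboxylase that follow had lower counts and wider ranges. PMVK, phosphomevalonate kinase, had 14.8, 13.9 and 13.7 CPM in IL6Myc-1, then 12.6, 13.7 and 15.8 CPM in IL6Myc-4 and 10.9, 11.2 and 11.3 CPM in IL6Myc-5. It had 8.60, 9.45 and 7.31 CPM in IL6Myc-3 and 6.73, 6.86 and 6.56 CPM in IL6Myc-2. IL6Myc-1 and IL6Myc-4 overlapped, and all IL6Myc-2 libraries lay below the rest. The PMVK difference of IL6Myc-1 minus IL6Myc-2 was 1.07 ± 0.11 log2 units and was called (edgeR adjusted p = 1.46e-07), but PMVK fell short of the size threshold when limma was used on log2(CPM + 1), with a range of 0.97.

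MVD, mevalonate diphosphate decarboxylase, was ordered differently. It had 20.6, 19.7 and 21.4 CPM in IL6Myc-2, 15.7, 16.1 and 15.9 CPM in IL6Myc-5, and 13.2, 13.6 and 15 CPM in IL6Myc-1. It had 11.4, 12.6 and 12.1 CPM in IL6Myc-3 and 9.86, 9.78 and 10.6 CPM in IL6Myc-4. Every line mean of MVD was separated from its neighbours without overlap between libraries, and IL6Myc-2 minus IL6Myc-4 came to 1.03 ± 0.07 log2 units (edgeR adjusted p = 3.56e-09). The MVD range was 0.96 with limma on log2(CPM + 1) and 0.70 with library totals in place of TMM sizes, both short of the threshold. MVK, mevalonate kinase, ranged by line mean over 6.08 ± 0.897 CPM in IL6Myc-2, 6.10 ± 0.758 in IL6Myc-5, 8.0 ± 0.240 in IL6Myc-3, 9.68 ± 0.201 in IL6Myc-4 and 10.4 ± 0.918 in IL6Myc-1. MVK was thus low in the line where MVD was highest.

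The last steps to farnesyl diphosphate were even. IDI1, the isomerase of isopentenyl diphosphate, ranged over 0.40 log2 units, with 78.5 ± 1.11 CPM in the highest line, IL6Myc-1, and 59.6 ± 2.84 CPM in the lowest, IL6Myc-5. FDPS, farnesyl diphosphate synthase, ranged over 0.31 log2 units, with 96.5 ± 5.57 CPM in IL6Myc-2 and 78.1 ± 3.27 in IL6Myc-4. IDI1 shares 18.8% and FDPS 27.9% of 31-base words with other genes, mostly predicted ones that have no entry of that name in the table. The summed mevalonate level was highest in IL6Myc-1 (271 ± 5.27 CPM) and lowest in IL6Myc-5 (226 ± 3.48 CPM, SD, n = 3 each). By gene, IL6Myc-5 had the lowest mean for 1 of the 7 (14.3%), against 16% of all tested genes. At any size 4 of the 7 were lower there and 1 was higher, against 25.9% and 28.9% of all tested genes.

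In the sterol branch, FDFT1 was the member that set 1 line apart most. FDFT1, squalene synthase, commits farnesyl diphosphate to sterols. It had 54.6, 55.7 and 57.7 CPM in IL6Myc-4, against 27.9, 27.0 and 26.2 CPM in IL6Myc-5, then 25.6, 24.7 and 28.7 CPM in IL6Myc-2, 19.3, 20.9 and 18.3 CPM in IL6Myc-1, with 17.8, 17.2 and 18 CPM in IL6Myc-3. All IL6Myc-4 libraries lay above all others, and the IL6Myc-4 mean was 2.07 times that of the second line. Between IL6Myc-5 and IL6Myc-2, and between no other neighbours in this order, the libraries overlapped. FDFT1 was higher in IL6Myc-4 by 1.33 ± 0.05 log2 units than the mean of the other lines (edgeR adjusted p = 2.49e-13), and higher by 1.05 to 1.66 log2 units than each of the others singly. It was the only member called against each other line singly, where 1.33% of all tested genes were called higher in IL6Myc-4. Under limma on log2(CPM + 5) no member was. FDFT1 shares 14.3% of its 31-base words with the predicted gene GM6781, which has no entry of that name in the table.

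**Figure D3:**
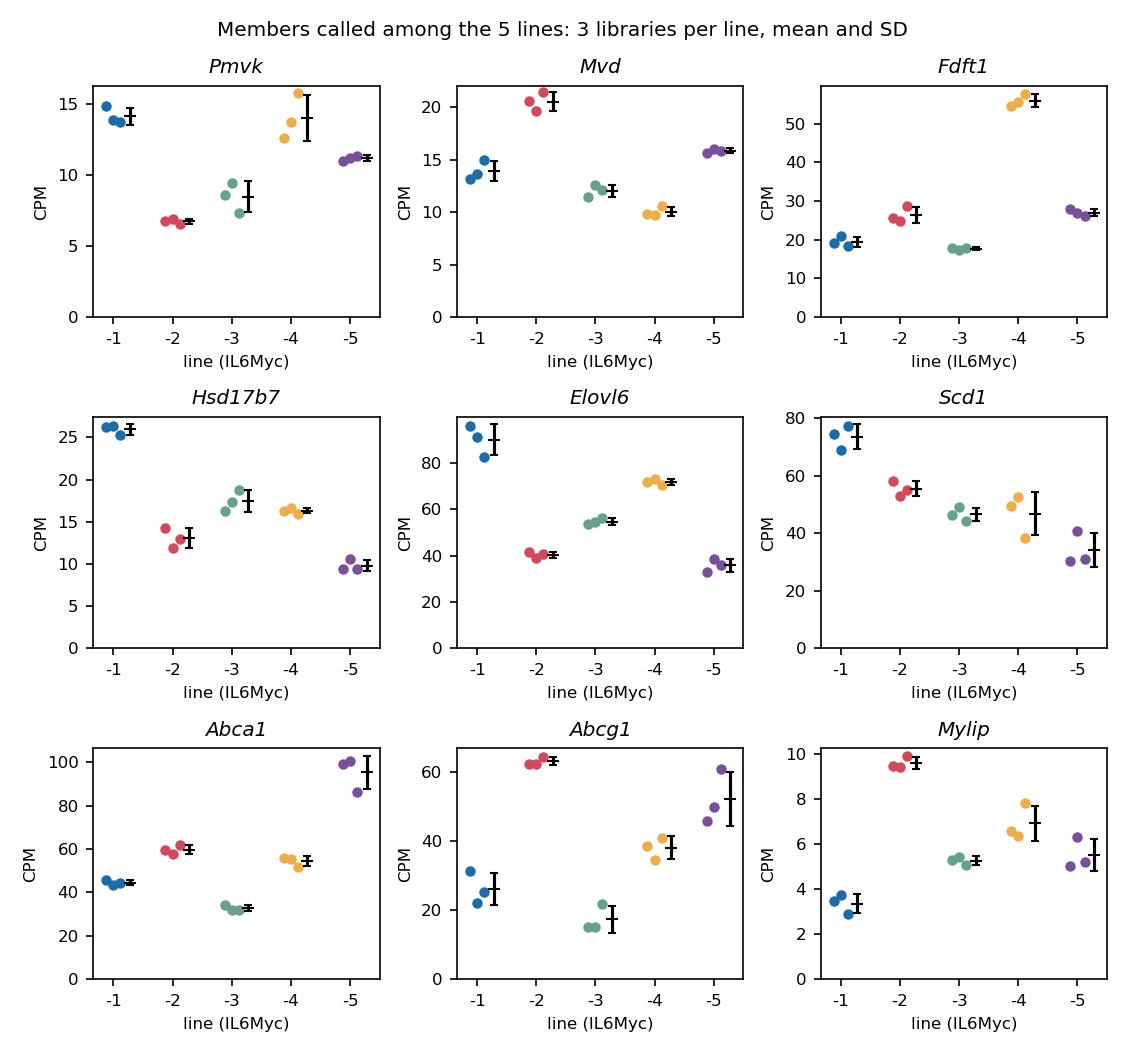
Level in CPM of the 9 members called by the F-test, in each of the 15 libraries (points, 3 per line) with the line mean ± SD. FDFT1 is highest in the 3 IL6Myc-4 libraries (54.6 to 57.7 CPM), ABCA1 in the 3 IL6Myc-5 libraries (86.5 to 100.5 CPM) and ABCG1 lowest in IL6Myc-3 (15 to 21.8 CPM).

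The other sterol branch enzymes did not follow FDFT1. SQLE, squalene epoxidase, had 45.4, 45.2 and 48.2 CPM in IL6Myc-5, against 67.9 to 79.1 CPM in the other 12 libraries. The IL6Myc-5 libraries lay apart and the other 4 lines overlapped, with line means of 72.4 to 75.7 CPM. The SQLE difference of IL6Myc-5 from the mean of the others was -0.68 ± 0.04 log2 units (edgeR adjusted p = 1.23e-09).

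HSD17B7, the ketosteroid reductase that acts in removal of the sterol methyl groups, separated the lines at both ends. It had 26.2, 26.4 and 25.2 CPM in IL6Myc-1, against 16.2, 17.4 and 18.7 CPM in IL6Myc-3, 16.3, 16.6 and 16.0 CPM in IL6Myc-4, 14.2, 11.9 and 13.0 CPM in IL6Myc-2 and 9.35, 10.6 and 9.44 CPM in IL6Myc-5. The IL6Myc-1 libraries lay above and the IL6Myc-5 libraries below all others, while IL6Myc-3 and IL6Myc-4 overlapped. IL6Myc-1 minus IL6Myc-5 was 1.41 ± 0.08 log2 units for HSD17B7 (edgeR adjusted p = 1.62e-10). From the mean of the other lines, HSD17B7 differed by 0.91 ± 0.06 log2 units in IL6Myc-1 and by -0.85 ± 0.07 in IL6Myc-5, both short of 1.

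LSS, which closes squalene epoxide to lanosterol, varied more between libraries of a line than its neighbours in the path. Its IL6Myc-5 libraries held 30.0, 24.9 and 25.1 CPM, just below the lowest other library at 30.1 CPM in IL6Myc-2, and its IL6Myc-1 libraries 42.0, 56.1 and 53.0 CPM. LSS differed by -0.61 ± 0.11 log2 units in IL6Myc-5 (edgeR adjusted p = 0.000216). CYP51, the lanosterol demethylase, had 30.3, 33.1 and 30.8 CPM in IL6Myc-5, with line means of 36.0 CPM in IL6Myc-2 to 49.1 in IL6Myc-1 and no overlap of IL6Myc-5 with any other line. SC5D, the sterol desaturase, had 28.7, 29.3 and 26.6 CPM in IL6Myc-5, against 35.2 to 45.6 CPM in the other 12 libraries. CYP51 differed in IL6Myc-5 by -0.44 ± 0.04 and SC5D by -0.51 ± 0.06 log2 units (edgeR adjusted p = 3.98e-07 and 2.48e-06).

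The remaining sterol branch genes ranged over 0.57 log2 units or less. MSMO1, the methylsterol oxidase, had 12.1 ± 1.06 CPM in IL6Myc-5, where it was lowest, and 17.2 ± 1.15 CPM in IL6Myc-1, where it was highest. NSDHL, the sterol dehydrogenase that works beside it, was highest in IL6Myc-4 with 37.3, 40.5 and 37.7 CPM, above all other libraries, and had 26.7 ± 2.19 CPM in IL6Myc-5. EBP, the sterol isomerase, was lowest in IL6Myc-1, with 41.1 ± 4.75 CPM, beside 43.2 ± 4.40 CPM in IL6Myc-5. Its IL6Myc-5 difference did not pass (edgeR adjusted p = 0.052). DHCR7, a reductase of the last steps, ranged least of all members, with 33.7 ± 2.38 CPM in IL6Myc-5 and 41.3 ± 1.52 in IL6Myc-3. TM7SF2, a sterol reductase, had 5.20 ± 0.243 CPM in IL6Myc-5 and 7.73 ± 0.836 in IL6Myc-4. Of its 31-base words 12.9% also occur in other genes, mostly its neighbour VPS51. VPS51 had line means of 41.8 to 47.3 CPM, so the division of reads between them, and with it the TM7SF2 level, is uncertain.

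Over the 11 sterol branch genes, 9 were lower in IL6Myc-5 at any size, 0 were higher, and FDFT1 and EBP did not pass. Of all tested genes, 25.9% were lower there and 28.9% higher. The median log2 difference of the 11 genes was -0.32, against 0.00 over all tested genes. IL6Myc-5 had the lowest mean for 9 of the 11 (81.8%), against 16% of all tested genes. In IL6Myc-4 5 were higher and 0 lower at any size, against 28.6% and 27.4% of all tested genes. In IL6Myc-1 7 were higher and 3 lower, against 34.3% and 33.9%. The summed sterol branch level was 422 ± 1.36 CPM in IL6Myc-4, 395 ± 8.80 CPM in IL6Myc-1, 383 ± 1.80 CPM in IL6Myc-3, 354 ± 8.94 CPM in IL6Myc-2 and 290 ± 3.18 in IL6Myc-5.

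**Figure D4:**
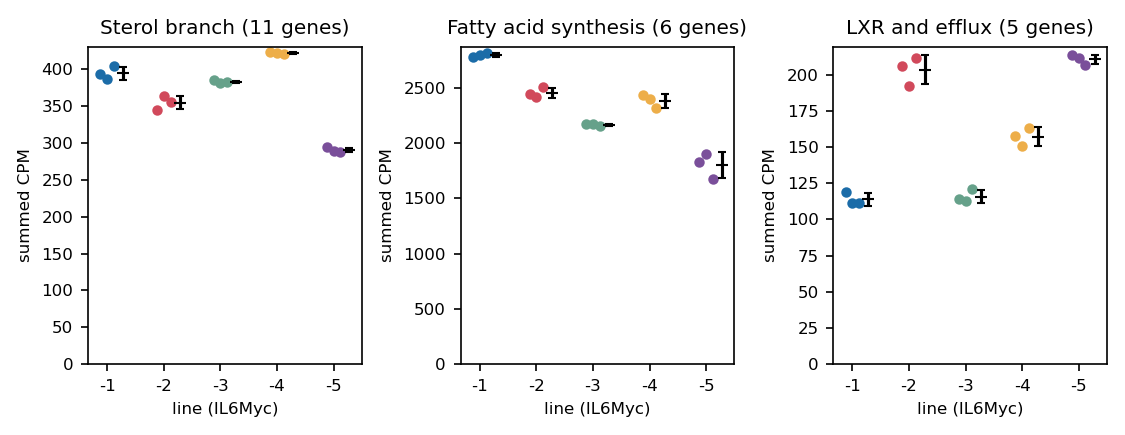
Summed level in CPM of the genes of 3 roles in each of the 15 libraries (points) with the line mean ± SD (n = 3), the axes starting at 0. The sterol branch sum is lowest in IL6Myc-5 (290 CPM), the fatty acid sum is highest in IL6Myc-1 (2800 CPM), and the LXR and efflux sum is high in IL6Myc-2 (203 CPM) and IL6Myc-5 (211 CPM).

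In sterol sensing, none of the 6 genes was called over the lines, and the inhibitors INSIG1 and INSIG2 ranged over 0.70 and 0.81 log2 units between lines, against 0.54 and 0.36 for the factors SREBF1 and SREBF2. SREBF2, which encodes the SREBP form that mainly drives sterol genes, ranged over 0.36 log2 units, with 168, 168 and 153 CPM in IL6Myc-5, against 172 to 215 CPM in the other 12 libraries. SREBF1, which encodes the form more tied to fatty acid genes, was highest in IL6Myc-4 with 101, 104 and 105 CPM, above every other library, and its difference there was 0.39 ± 0.05 log2 units (edgeR adjusted p = 8.35e-06). SCAP, the escort protein, was lowest in IL6Myc-2 (62.0 ± 0.572 CPM) and highest in IL6Myc-3 (82.7 ± 1.72 CPM). Of the summed counts of the SREBP genes, SREBF1 took 28.8% in IL6Myc-3 to 34.0% in IL6Myc-5.

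INSIG1, itself a target of SREBP and an anchor that retains SCAP, split the lines into levels. It had 132, 129.8 and 135 CPM in IL6Myc-5, with 140.4, 147 and 143 CPM in IL6Myc-1. Above these lay 183, 188 and 186 CPM in IL6Myc-3, 211, 209 and 213 CPM in IL6Myc-2 and 219, 216 and 211 CPM in IL6Myc-4. IL6Myc-2 and IL6Myc-4 overlapped, and every other neighbouring pair of lines was separated. From the mean of the other lines, INSIG1 differed by -0.50 ± 0.03 log2 units in IL6Myc-5 and by -0.35 ± 0.03 in IL6Myc-1 (edgeR adjusted p = 1.72e-10 and 5.2e-09). In IL6Myc-1 INSIG1 was therefore low while HMGCS1, CYP51, HSD17B7 and IDI1 were at their highest, whereas in IL6Myc-5 all of these were below the average of the other lines at an adjusted p under 0.05.

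INSIG2, its relative that is not induced through SREBP in most cells, was highest in IL6Myc-2 (60.7 ± 1.80 CPM) and lowest in IL6Myc-5 (34.5 ± 2.67 CPM), beside 36.9 ± 2.41 CPM in IL6Myc-3. INSIG1 made up 75.2% of the INSIG counts in IL6Myc-1 and 83.4% in IL6Myc-3. STARD4, a carrier of cholesterol between membranes and a target of SREBP, had 22.7, 21.9 and 19.9 CPM in IL6Myc-5, against 30.4 to 39.0 CPM in the other 12 libraries. The STARD4 difference in IL6Myc-5 was -0.66 ± 0.05 log2 units (edgeR adjusted p = 2.85e-08), and IL6Myc-1 stood at the other end with 38.1 ± 0.884 CPM.

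In fatty acid synthesis, the makers of the carbon chain and the enzymes that lengthen and desaturate it were ordered differently over the lines. ACLY, which releases acetyl-CoA from citrate, had 149, 145 and 145 CPM in IL6Myc-1, with line means of 169.7 ± 3.43 CPM in IL6Myc-2 to 196 ± 5.09 in IL6Myc-3. FASN, fatty acid synthase, had 182, 223 and 216 CPM in IL6Myc-1, with line means of 257 ± 8.73 CPM in IL6Myc-5 to 292 ± 23.5 in IL6Myc-4. For both, all IL6Myc-1 libraries lay below all others, by -0.33 ± 0.03 log2 units for ACLY and -0.38 ± 0.06 for FASN (edgeR adjusted p = 1.67e-07 and 5.82e-05). ACACA, acetyl-CoA carboxylase, ranged over 0.31 log2 units with overlapping lines, from 59.0 ± 6.35 CPM in IL6Myc-2 up to 72.8 ± 6.90 CPM in IL6Myc-1, and 33.4% of its 31-base words also occur in other genes.

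The 3 enzymes that modify the finished chain were instead highest in IL6Myc-1 and lowest in IL6Myc-5. ELOVL6, the elongase of palmitate, had 95.9, 91.4 and 82.7 CPM in IL6Myc-1, then 71.9, 73.0 and 70.7 CPM in IL6Myc-4 and 53.5, 54.4 and 56.2 CPM in IL6Myc-3. It had 41.6, 38.9 and 40.5 CPM in IL6Myc-2 and 32.9, 38.6 and 36.0 CPM in IL6Myc-5. No neighbouring pair of lines overlapped for ELOVL6, and IL6Myc-1 minus IL6Myc-5 was 1.33 ± 0.06 log2 units (edgeR adjusted p = 1.06e-11).

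SCD2 followed the same ends at a far higher level. It had 2203, 2204 and 2225 CPM in IL6Myc-1, then 1842, 1866 and 1897 CPM in IL6Myc-2 and 1764, 1760 and 1658 CPM in IL6Myc-4. It had 1538, 1554 and 1523 CPM in IL6Myc-3 and 1237, 1302 and 1109 CPM in IL6Myc-5. No lines overlapped, and against the other lines on average SCD2 came to 0.50 ± 0.03 log2 units in IL6Myc-1 and to -0.58 ± 0.04 in IL6Myc-5 (edgeR adjusted p = 2.14e-09 and 1.67e-09).

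SCD1, the paralogue of SCD2 on the same chromosome 19, had 74.6, 68.8 and 77.3 CPM in IL6Myc-1, against 58.2, 53.0 and 54.9 CPM in IL6Myc-2, 49.5, 52.6 and 38.3 CPM in IL6Myc-4, 46.5, 48.9 and 44.4 CPM in IL6Myc-3 and 30.3, 40.8 and 31.1 CPM in IL6Myc-5. IL6Myc-1 lay above all others, and the IL6Myc-4 libraries overlapped with those of IL6Myc-3 and of IL6Myc-5. IL6Myc-1 minus IL6Myc-5 was 1.12 ± 0.11 log2 units for SCD1 (edgeR adjusted p = 1.69e-07). Per kilobase, SCD2 exceeded SCD1 by 26.6 times in IL6Myc-1 to 32.7 times in IL6Myc-4. Of the 31-base words of SCD1, 8.14% also occur in other genes and 5.18% occur in SCD2, while 4.63% of the words of SCD2 occur in SCD1. The counts of SCD2 were 30.1 to 36.9 times those of SCD1 by line, so reads of SCD2 that match both could make up a large part of the SCD1 level. The SCD1 levels and its call are therefore uncertain, and the part of SCD2 in them was not tested.

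The summed level of the 6 fatty acid genes was 2800 ± 14.8 CPM in IL6Myc-1 and 1804 ± 118 in IL6Myc-5, but without SCD2 it was 589.9 ± 7.68 CPM in IL6Myc-1 and 588 ± 19.8 in IL6Myc-5. The highest sum without SCD2 was 658 ± 18 CPM in IL6Myc-4.

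In the LXR and efflux group, neither receptor was called over the lines and all 3 targets were. NR1H2, the broadly expressed LXR receptor, had 37.6, 40.6 and 38.1 CPM in IL6Myc-1, below all other libraries, with line means of 56.6 ± 5.29 CPM in IL6Myc-5 to 70.2 ± 7.15 in IL6Myc-2. NR1H3, the receptor of liver and macrophages, stayed at 0.348 to 1.34 CPM in all libraries, and its F-test did not pass (edgeR adjusted p = 0.0621). Its IL6Myc-4 minus IL6Myc-5 difference of -1.04 ± 0.37 log2 units was called (adjusted p = 0.0272), with 0.429, 0.348 and 0.729 CPM in IL6Myc-4 and 1.11, 0.955 and 1.02 CPM in IL6Myc-5, the lowest counts among the members. Without IL6Myc-4 replicate 3, NR1H3 was also called lower in IL6Myc-4 than in the others on average, by -1.11 log2 units (adjusted p = 0.0202). NR1H2 made up 97.7% to 99.1% of the summed receptor counts.

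ABCA1, the pump that loads cholesterol onto apolipoprotein A-I, had 99.0, 100.5 and 86.5 CPM in IL6Myc-5, against 59.6, 57.6 and 61.8 CPM in IL6Myc-2, 55.9, 55.5 and 51.6 CPM in IL6Myc-4, 45.8, 43.4 and 44.3 CPM in IL6Myc-1, with 34.2, 31.7 and 31.9 CPM in IL6Myc-3. No lines overlapped in this order. ABCA1 was higher in IL6Myc-5 by 1.03 ± 0.04 log2 units (edgeR adjusted p = 6.1e-12) and was the 1 member of 35 called higher there, where 4.8% of all tested genes were. Without IL6Myc-5 replicate 2 the difference was 0.99, short of the threshold, and with limma on log2(CPM + 5) it was 0.95.

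ABCG1, the pump that passes cholesterol to lipoproteins, had the widest range of all members. It had 62.3, 62.4 and 64.3 CPM in IL6Myc-2, 45.7, 49.7 and 60.9 CPM in IL6Myc-5, with 38.6, 34.4 and 40.9 CPM in IL6Myc-4. It had 31.2, 22 and 25.3 CPM in IL6Myc-1, with 15, 15.1 and 21.8 CPM in IL6Myc-3. Neighbouring lines came close, with 21.8 CPM in IL6Myc-3 next to 22 CPM in IL6Myc-1, but did not overlap. IL6Myc-2 minus IL6Myc-3 was 1.86 ± 0.15 log2 units for ABCG1 (edgeR adjusted p = 1.16e-08).

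Against the mean of the other lines, ABCG1 was the 1 member called higher in IL6Myc-2, by 1.03 ± 0.10 log2 units, where 8.6% of all tested genes were called higher. It was also the 1 member called lower in IL6Myc-3, by -1.29 ± 0.12 log2 units, where 3.05% were called lower (edgeR adjusted p = 2.25e-07 and 2.01e-07). The IL6Myc-2 call rested on small margins: without IL6Myc-1 replicate 2 the difference came to 0.999976, and with library totals it came to 0.74. ABCA1 and ABCG1 were both lowest in IL6Myc-3, and ABCA1 took 48.6% of their summed counts in IL6Myc-2 and 65.5% in IL6Myc-3.

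MYLIP, the ubiquitin ligase that LXR induces to remove lipoprotein receptors, had 3.46, 3.74 and 2.88 CPM in IL6Myc-1, then 5.30, 5.45 and 5.07 CPM in IL6Myc-3 and 5.01, 6.32 and 5.19 CPM in IL6Myc-5. It had 6.57, 6.38 and 7.83 CPM in IL6Myc-4 and 9.50, 9.45 and 9.93 CPM in IL6Myc-2. IL6Myc-1 lay below and IL6Myc-2 above all others, and IL6Myc-3 and IL6Myc-5 overlapped. IL6Myc-1 minus IL6Myc-2 was -1.51 ± 0.13 log2 units for MYLIP (edgeR adjusted p = 2.31e-08). From the mean of the other lines it differed in IL6Myc-1 by -0.97 ± 0.11, which became -1.04 and was called without IL6Myc-1 replicate 2.

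The summed LXR and efflux level was 211 ± 3.34 CPM in IL6Myc-5 and 203 ± 10.1 in IL6Myc-2, against 157 ± 6.40 CPM in IL6Myc-4, 116 ± 4.41 CPM in IL6Myc-3 and 114 ± 4.41 in IL6Myc-1. IL6Myc-5 thus combined the lowest sterol branch sum with the highest mean LXR and efflux sum, a sum that includes the receptors. The libraries of IL6Myc-5 and IL6Myc-2 overlapped in the LXR and efflux sum, and IL6Myc-2 had a sterol branch sum of 354 CPM. Macrophages also express ABCA1 and ABCG1. Their summed markers had line means of 190.4 CPM in IL6Myc-5, 271 CPM in IL6Myc-2, 677 CPM in IL6Myc-4, 136 CPM in IL6Myc-3 and 192 in IL6Myc-1. Nearly all of these sums came from CD68, a lysosomal protein, and C1QB, a complement chain, which were both called over the lines. CD68 averaged 75.4 CPM in IL6Myc-5, 201 CPM in IL6Myc-2, 186 CPM in IL6Myc-4, 62.2 CPM in IL6Myc-3 and 116 in IL6Myc-1, and C1QB averaged 113 CPM in IL6Myc-5, 66.9 CPM in IL6Myc-2, 490 CPM in IL6Myc-4, 71.1 CPM in IL6Myc-3 and 74.3 in IL6Myc-1. MRC1 averaged 1.41 to 2.19 CPM, MARCO had no counts in any line, and LYZ2, CSF1R, CD14, ADGRE1 and C1QA averaged at most 0.559 CPM. The part of these markers in the ABCA1 and ABCG1 levels was not tested.

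The other lines had mixed patterns. In IL6Myc-1, against the average of the others 17 members were higher at any size and 13 lower, against 34.3% and 33.9% of all tested genes. All 3 IL6Myc-1 libraries lay above the rest for 8 members (14.5% of all tested genes did) and below for 5 members (13.5% did), and 0 members were called at the size threshold, where 4.39% of all tested genes were higher and 8.11% lower. The 8 were HMGCS1, IDI1, CYP51, HSD17B7, STARD4, ELOVL6, SCD1 and SCD2, and the 5 were ACAT2, ACLY, FASN, NR1H2 and MYLIP. Compared with each other line singly at any size, 7 members were higher and 5 lower, against 13.1% and 13.2% of all tested genes.

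In IL6Myc-4, 15 members were higher and 4 lower at any size, against 28.6% and 27.4% of all tested genes, and FDFT1, NSDHL and SREBF1 were above all other libraries. The size of this tilt depended on the scaling, since with library totals 26 members were higher and 1 was lower. At the size threshold 1 member was called higher, where 5.28% of all tested genes were, and 0 lower, where 4.37% were. All 3 IL6Myc-4 libraries lay above the rest for 9.05% of all tested genes and below for 6.72%, the single member below being MVD. In IL6Myc-2, 12 members were higher and 11 lower at any size, against 33.4% and 32.2% of all tested genes, but 5 were higher and 22 lower with library totals. Its 3 libraries lay above the rest for MVD, INSIG2, ABCG1 and MYLIP (13.8% of all tested genes did) and below for HMGCS1, PMVK and SCAP (11.2% did). For HMGCS1 the gap to IL6Myc-5 was slight, and IL6Myc-2 minus IL6Myc-5 was -0.04 ± 0.05 log2 units (edgeR adjusted p = 0.534). In IL6Myc-2 0 members were called lower, where 4.08% of all tested genes were. In IL6Myc-3, 11 were higher and 8 lower at any size, against 27.2% and 26.4% of all tested genes, and 18 were higher and 7 lower with library totals. Its libraries lay above the rest for 0 members (5.9% of all tested genes did) and below for FDFT1, ABCA1 and ABCG1 (5.14% did), and 0 members were called higher, where 4.6% of all tested genes were. With library totals the median of all tested genes itself moved, to -0.29 log2 units in IL6Myc-2, 0.11 in IL6Myc-3 and 0.12 in IL6Myc-4 against 0.00 to -0.01 on TMM sizes, and the counts on library totals carry that shift.

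Around the members, 7 further lists of lipid genes were counted by the same F-test call. Of the genes of SREBP cleavage and sterol-regulated turnover, 2 of 9 were called. RNF145, a sterol-responsive ubiquitin ligase of the endoplasmic reticulum, had 178 ± 6.0 CPM in IL6Myc-4 and 86.0 ± 1.93 in IL6Myc-2. ERLIN1, a membrane protein of the same compartment, had 57.7 ± 3.51 CPM in IL6Myc-1 and 24.9 ± 0.918 in IL6Myc-3. Of the isoprenoid branches, which use farnesyl diphosphate for ubiquinone, dolichol and protein prenylation, 1 of 10 was called: PDSS1, of ubiquinone side chain synthesis, with 14.0 ± 0.951 CPM in IL6Myc-1 and 6.54 ± 0.416 in IL6Myc-2. Both shares lie below the 32.1% of all tested genes.

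Of the sterol transport and storage genes, 3 of 9 were called, all of the GRAMD1 family that carries cholesterol from the plasma membrane to the endoplasmic reticulum. GRAMD1B had 8.40 ± 1.85 CPM in IL6Myc-1 and 24.9 to 30.4 CPM by line mean elsewhere, and it was called lower in IL6Myc-1 than in each other line singly. GRAMD1C was lowest in the same line, with 4.13 ± 0.407 CPM, and highest in IL6Myc-4 with 11.2 ± 0.951 CPM. GRAMD1A had 59.2 ± 6.65 CPM in IL6Myc-2 and 26.8 ± 2.10 in IL6Myc-1.

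Of the fatty acid elongation, desaturation and activation genes, 4 of 16 tested were called. FADS3, a desaturase relative, had 27.1 ± 2.60 CPM in IL6Myc-1 and 50.6 to 86.4 CPM elsewhere. FADS2, the desaturase that starts synthesis of polyunsaturated fatty acids, had 153 ± 1.54 CPM in IL6Myc-4 and 73.5 ± 2.28 in IL6Myc-1. FADS1, the other desaturase of that family in the list, was like FADS2 higher in IL6Myc-4 than the mean of the other lines. Its difference there was 0.33 ± 0.04 log2 units (edgeR adjusted p = 4.8e-06). Unlike FADS2 it was also higher in IL6Myc-1, by 0.31 ± 0.04 log2 units (edgeR adjusted p = 6.89e-06), with 71.9 ± 1.82 CPM in that line. MID1IP1, an activator of acetyl-CoA carboxylase, had 40.8 ± 2.08 CPM in IL6Myc-1 and 18.5 ± 0.230 in IL6Myc-5, the same ends as ELOVL6, SCD1 and SCD2.

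Of the triglyceride and lipid droplet genes, 3 of 9 tested were called, among them PNPLA2, the triglyceride lipase, with 64.3 ± 3.28 CPM in IL6Myc-2 and 27.8 ± 1.34 in IL6Myc-1. PLIN2, a coat protein of lipid droplets, had 17.8 ± 2.10 CPM in IL6Myc-5, 17.4 ± 1.47 CPM in IL6Myc-1 and 8.12 ± 1.03 in IL6Myc-2. Of the fatty acid oxidation genes, 3 of 11 were called. CPT1A, which admits fatty acids to mitochondria, had 98.4 ± 1.47 CPM in IL6Myc-4 and 47.2 ± 1.80 in IL6Myc-1, and PPARD, a nuclear receptor of fatty acids, had 72.2 ± 2.22 CPM in IL6Myc-2 and 33.6 ± 2.15 in IL6Myc-3. Of the LXR partners and further LXR targets, 3 of 6 tested were called, none of them at 5 CPM or more in its highest line.

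These lists did not all lean the way of the members in IL6Myc-5. At an adjusted p under 0.05 of any size, 28.9% of all tested genes were higher in IL6Myc-5 and 25.9% were lower. Of the genes of SREBP cleavage and turnover, 4 of 9 were higher there and 2 were lower. Of the isoprenoid branches 1 of 10 was higher and 3 were lower, of sterol transport and storage 2 of 9 were higher and 3 were lower, and of elongation, desaturation and activation 3 of 16 were higher and 6 were lower. Among triglyceride and lipid droplet genes 3 of 9 were higher and 1 was lower, among oxidation genes 3 of 11 were higher and 1 was lower, and among LXR partners and targets 3 of 6 were higher and 1 was lower. Several of these small counts lie near the shares of all tested genes, and no difference between lists was tested.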

How the data were processed

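Per the labels' protocols, extraction used the RNeasy mini kit and library preparation the TruSeq Stranded Total RNA kit. The submitters' processing notes name Trim Galore 0.4.0, DESeq2 and GRCm39, while the aligner and quantifier are not known from the sources used here. Although the deposited table is named for TPM, its values were taken as estimated counts per gene made by the authors, because the columns have unequal totals and 30.8% to 54.3% of values above 0 and under 1.5 lie within 0.02 of 1. A length correction by a quantifier, if any was made, would remain in the levels.

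The counts were rounded and fitted in edgeR 4.0.16 (R 4.3.3) with the line as the single factor, TMM factors of 0.848 to 1.08, and 11773 genes at 1 CPM or more in at least 3 libraries. Tests were the F-test over lines, each line minus the mean of the other 4, and the 10 pairs. Gene names are in capitals, as in the table. Members and gene lists were chosen with earlier results of these data known. All 35 members are named, with, from each other lipid list, the called genes with the 3 largest ranges at 5 CPM or more in the highest line. FADS1 was named outside this rule, beside its relatives FADS2 and FADS3. The median biological coefficient of variation was 0.0639. Chi-square values per degree of freedom between libraries of a line were 4.54 to 20.0, above sampling noise, and none was merged. The test was tried on simulated data for IL6Myc-1 minus the mean of the other 4 lines, with 11458 genes. There, 93 of 97 genes with a change of 1 log2 unit were significant with the right sign and 46 also passed the size threshold. Of genes changed by 2 log2 units 98 of 99 were called. Of 11262 unchanged genes 16 were significant at any size and 0 were called.

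Exon lengths and shared 31-base words came from GENCODE vM21, and promoters from RefSeq. Alternatives were DESeq2 1.42.0 size factors or tests, limma 3.58.1 on log2(CPM + 1) and log2(CPM + 5), no filter or a filter of 5 CPM, a size threshold of 0.58, a replicate block, leaving out each library, and library totals without TMM factors, the last chosen after seeing the data.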

Additional observations from a re-analysis of the deposited data

How the results depend on the processing

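Of the counts over members and over all genes, 200 of 225 values under the alternatives, and 371 of 375 with 1 library left out, stayed within 1.5 times the main value. Counts were not scored for direction, and ranges between lines have no sign. The log2 differences of members called in a line kept their sign in all settings. With limma on log2(CPM + 5), 1594 genes were called over the lines, no member was called higher in IL6Myc-2 or IL6Myc-5 or against each other line singly (0, 0 and 0), and 11 member pair tests were called. With a filter of 5 CPM, 2449 genes were called over the lines, from fewer genes tested. With a size threshold of 0.58, 6840 genes and 20 members were called over the lines. At that threshold IL6Myc-1 had 3 members higher and 3 lower, IL6Myc-2 had 3 higher and 1 lower, IL6Myc-3 had 3 lower, IL6Myc-4 had 2 lower, and IL6Myc-5 had 2 higher and 7 lower; 7 were set apart singly and 79 pair tests were called. With library totals, chosen after seeing the data, IL6Myc-2 had 0 members called higher and 1 lower, and 5 higher and 22 lower at any size. On the same totals IL6Myc-3 had 18 higher at any size, and IL6Myc-4 26 higher and 1 lower at any size. Shares of all tested genes by line were not counted at the 0.58 threshold or on library totals. The member counts by line there are therefore not read as results about the members. Leaving out 1 library gave 0 to 1 members lower in IL6Myc-1, 0 to 1 higher in IL6Myc-2, 0 to 1 lower in IL6Myc-4 and 0 to 1 higher in IL6Myc-5. Apart from the filter and the thresholds, the cause was not tested.

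Replicate numbers did not pair the samples: deviations of same-numbered libraries correlated at -0.084 to 0.11, and 7 of 15 libraries correlated best with their own number. With the replicate number as a block, 3785 genes and 9 members were called over the lines and 21 pair tests. Depth limits Nr1h3 most, which had under 1.5 CPM in every library.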
